A study of Mus musculus with 88 samples.

Results

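The genes described here are 10 markers by which endothelial cells are recognised: Pecam1, Cdh5, Icam2, Kdr, Flt1, Tek, Tie1, Vwf, Aqp1 and Nos3. They were taken as the probe sets of the array that the platform annotation maps to 1 of these symbols alone, which gave 14 of the 12488 probe sets and all 10 genes, of 8252 gene symbols on the array. RNA of whole mouse hearts was measured on Affymetrix arrays, with 1 mouse per array and 88 mice in all. Mice called dKO were SR-BI-/- apoE-/-, without the high-density lipoprotein receptor encoded by Scarb1, and control mice called HET were SR-BI+/- apoE-/-, so that apolipoprotein E was missing in every group and no wild-type heart was included. The labels name no cell type to which either deletion is limited. Mice were 21, 31 or 43 days old, and at these ages dKO hearts from chow-fed mice numbered 10, 10 and 12, and HET hearts 9, 10 and 9. Further mice ate probucol, an antioxidant that lowers cholesterol, and of these dKO hearts numbered 6, 8 and 6 and HET hearts 3, 3 and 2 at the same ages. The design text describes chow-fed dKO mice as free of visible coronary disease at the youngest age, with small infarcts and heart failure at 31 days and far larger ones by 43 days, and chow-fed HET mice as free of it.

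Endothelial cells line all blood vessels of the heart and form a sheet held together by adhesion molecules at their borders. Their growth and quiescence are set by receptor tyrosine kinases for vascular endothelial growth factors and for angiopoietins, and they release von Willebrand factor for platelet adhesion and nitric oxide for vessel relaxation. The 10 genes thus belong to different functions of 1 cell type. In RNA of a whole heart, fewer cells of a type and less RNA per cell cannot be told apart.

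Between genotypes on chow the 10 genes did not move as 1 group. With the signals as deposited, at 43 days Vwf, Icam2 and Nos3 were 1.92-fold, 1.88-fold and 2.01-fold higher in dKO than in HET hearts, and Aqp1 was 3.40-fold lower. After centring each array on its median the differences of Vwf, Icam2 and Nos3 were smaller and that of Aqp1 larger. Tek was higher as deposited and with centring plus a term for array set, but did not pass after centring alone. Pecam1, Cdh5, Kdr, Flt1 and Tie1 did not pass the test as deposited or after centring. Probucol in dKO hearts at 43 days, a comparison that uses the same dKO chow hearts with the opposite sign, gave lower Vwf, Icam2, Nos3 and Cdh5 and higher Aqp1. There Tek was lower as deposited but not after centring. Aqp1 was already 1.86-fold lower in dKO hearts at 21 days. This call was lost with the mean of both Aqp1 probe sets and within either set of arrays described below.

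Promoter sequences were available for 5 of the 10 genes, and those of Kdr, Tek and Aqp1 are shown because Kdr and Tek rose together in HET hearts between 21 and 31 days while Aqp1 had the largest genotype difference at 43 days. Each holds 250 bases before and 50 bases after the start of the RefSeq transcript in GRCm38.p6, written 5′ to 3′ on the gene's strand. Kdr lies at chr5:75978406-75978705 on the minus strand, Tek at chr4:94739039-94739338 on the plus strand and Aqp1 at chr6:55336049-55336348 on the plus strand. Capitals mark short letter runs in either orientation: CAGGAA and AGGAAG, which hold the core bound by ETS factors, GATAAG for GATA factors, GGGCGG for SP factors, CCACCC for KLF factors and the TATA box letters TATAAA. The first pair of runs can overlap each other.
Kdr: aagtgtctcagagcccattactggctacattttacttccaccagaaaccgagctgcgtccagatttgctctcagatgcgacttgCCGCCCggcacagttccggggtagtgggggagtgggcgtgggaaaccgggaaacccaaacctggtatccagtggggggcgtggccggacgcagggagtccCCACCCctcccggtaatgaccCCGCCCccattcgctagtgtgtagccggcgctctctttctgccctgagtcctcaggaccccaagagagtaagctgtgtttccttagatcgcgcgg
Tek: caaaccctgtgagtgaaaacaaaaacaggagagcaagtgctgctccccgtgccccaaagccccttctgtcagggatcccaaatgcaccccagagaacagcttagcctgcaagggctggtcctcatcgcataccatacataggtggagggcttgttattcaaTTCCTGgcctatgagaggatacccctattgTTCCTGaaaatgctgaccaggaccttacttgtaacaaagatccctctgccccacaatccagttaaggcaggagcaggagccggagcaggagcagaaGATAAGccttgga
Aqp1: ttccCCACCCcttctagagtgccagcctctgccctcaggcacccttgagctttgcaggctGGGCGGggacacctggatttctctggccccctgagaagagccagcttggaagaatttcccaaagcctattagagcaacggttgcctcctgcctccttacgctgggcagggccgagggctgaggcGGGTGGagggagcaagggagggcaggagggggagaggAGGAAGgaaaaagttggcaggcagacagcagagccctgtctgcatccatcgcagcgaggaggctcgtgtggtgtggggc
The Kdr promoter held 2 GGGCGG and 1 CCACCC, the Tek promoter 2 CAGGAA and 1 GATAAG, and the Aqp1 promoter 1 AGGAAG, 1 GGGCGG and 2 CCACCC. Over 32851 promoters of the same length, 30.55% held CAGGAA, 35.35% AGGAAG, 7.44% GATAAG, 35.66% GGGCGG, 31.48% CCACCC and 13.62% TATAAA. Among the 5 gene promoters, CCACCC was in 4 (Kdr, Flt1, Tie1 and Aqp1), AGGAAG in 3 (Flt1, Tie1 and Aqp1), GGGCGG in 3 (Kdr, Flt1 and Aqp1), CAGGAA in 2 (Tek and Tie1), GATAAG in Tek and TATAAA in Flt1. The genes that rose together, Kdr and Tek, shared none of these 6 letter runs. A match describes letters in this window and is no evidence of binding.

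Values are log2 signals, floored at the 10th percentile of all values (log2 2.08), and differences are log2 differences from 1 linear model of the 12 group means, ± the standard error of the fit. A gene passed the test where its p-value, adjusted by the Benjamini-Hochberg method over the 5673 genes tested in that comparison with limma, was under 0.05. The median signal of an array ran from 27.8 to 75.4 and moved with age and genotype, so that the median difference over all genes tested was -0.10 at 21, 0.18 at 31 and 0.26 at 43 days for dKO minus HET on chow, and 0.67 for 43 minus 21 days in dKO hearts on chow. Each result was therefore computed in 4 settings: with the signals as deposited, with quantile normalization, with each array centred on its median, and with that centring plus a term for array set. The array sets are 68 and 20 arrays that stood apart within groups on the second component of the residuals. On chow the smaller set took 6 of 10 dKO and 2 of 9 HET hearts at 21 days. At 31 days it took none of the 10 dKO and 6 of 10 HET hearts, and at 43 days none of the 12 dKO and 3 of 9 HET hearts. Scarb1 was lower in dKO than in HET chow hearts by 1.58 ± 0.17 at 21 days, 0.75 ± 0.17 at 31 days and 0.69 ± 0.16 at 43 days (adjusted p = 5.55e-11, 3.84e-04 and 2.50e-04), with groups apart at 21 days and overlapping later, and group means of the Apoe probe sets lay between 2.18 and 3.99. The sources used here do not say where the probe sets lie relative to the deleted parts. The mice were separate animals, so the errors include the spread between mice.

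No endothelial gene was absent. All 10 passed the filter on low signals with at least 1 probe set, and their probe sets with the highest mean, which stand for the genes here, were above the floor on all 88 arrays. The further probe set of Vwf had a mean of 3.42, failed the filter and was at the floor on 1 array, and the further probe sets of Flt1 (mean 5.04) and Aqp1 (5.03) were dim. That of Tie1 had a mean of 7.81. Signals of different probe sets depend on the probes and are not compared as levels.

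**Figure D1:**
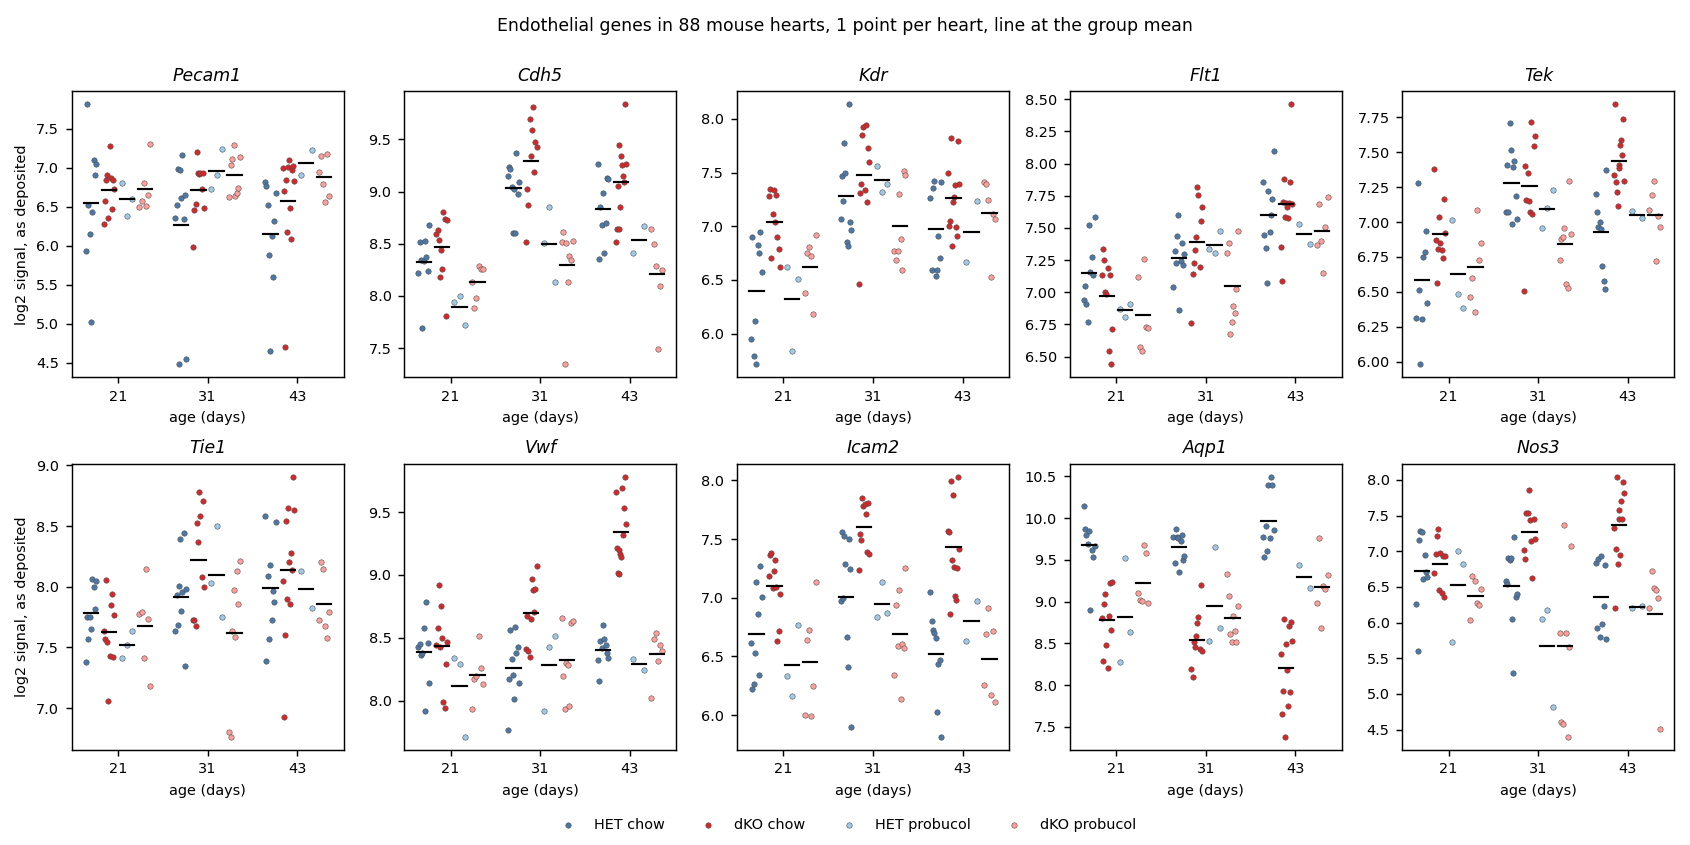
Log2 signal as deposited of the 10 endothelial genes (y axes, 1 panel per gene with its own scale) against age in days (x axes), 1 point per heart and a line at the mean of each group of genotype and diet. Vwf of dKO chow hearts at 43 days lies above all HET chow hearts of that age, and Aqp1 of dKO chow hearts at 31 and 43 days lies below all of them.

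Pecam1, Cdh5 and Icam2 encode adhesion molecules of the endothelial surface and borders: PECAM-1, the cadherin of the adherens junction, and a ligand of leukocyte integrins. Icam2 on chow at 43 days was 6.86, 7.37 and 8.03 (lowest, median and highest log2 signal) in dKO hearts and 5.82, 6.66 and 7.05 in HET hearts. The groups overlapped, with 9 of 12 dKO hearts above all HET hearts. The means were 7.43 ± 0.39 (SD, n = 12) and 6.52 ± 0.39 (SD, n = 9), a log2 difference of 0.91 ± 0.16 (adjusted p = 2.25e-06) that stayed past the threshold in all 4 settings, at 0.58 after median centring. At 31 days Icam2 was higher in dKO hearts by 0.59 ± 0.17 (adjusted p = 0.00529) as deposited but did not pass in the other 3 settings, with 0.39 ± 0.17 after centring. At 21 days its difference was 0.41 ± 0.17 (adjusted p = 0.208).

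Cdh5 on chow gave genotype differences of 0.15 ± 0.15, 0.26 ± 0.15 and 0.26 ± 0.14 at 21, 31 and 43 days, none past the threshold (adjusted p = 0.681, 0.192 and 0.134). After centring the difference at 43 days was -0.07 ± 0.13. Pecam1 gave 0.17 ± 0.26, 0.45 ± 0.25 and 0.43 ± 0.25 (adjusted p = 0.794, 0.201 and 0.153). Its spread was wide on chow: single hearts reached down to a log2 signal of 4.48 in HET hearts at 31 days, 4.64 in HET hearts at 43 days and 4.70 in dKO hearts at 43 days, against group medians of 6.56, 6.31 and 6.84. On probucol no Pecam1 value was below 6.38, and group SDs were 0.21 to 0.31 against 0.30 to 0.96 on chow. This difference in spread was not tested.

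Kdr and Flt1 encode the receptors VEGFR2, the main signalling receptor for vascular endothelial growth factor, and VEGFR1, which binds it tightly. Kdr on chow at 21 days was 6.62, 7.08 and 7.35 (lowest, median and highest log2 signal) in dKO hearts and 5.71, 6.57 and 6.95 in HET hearts. The groups overlapped, and the difference of means was 0.65 ± 0.17 (adjusted p = 0.0238). It passed in all 4 settings but not without dKO chow 21d replicate 2, whose description gives another age than its title (0.61, adjusted p = 0.0583), nor within either array set alone after centring (0.49 in the larger and 1.06 in the smaller set, adjusted p = 0.411 and 0.0737). At 31 and 43 days the Kdr difference was 0.19 ± 0.17 and 0.29 ± 0.17 as deposited (adjusted p = 0.434 and 0.15) and -0.01 ± 0.14 and -0.04 ± 0.14 after centring. Beside the difference at 21 days, macrophage markers were also higher in dKO hearts (4 of 9 tested, led by Cd68 with 1.12 ± 0.16, adjusted p = 6.34e-07). So were 2 of 6 erythroid markers tested, with 0 lower in either list, beside 0.670% of all genes higher. The part of these markers in the Kdr difference was not tested. Flt1 did not pass at any age as deposited, with -0.17 ± 0.13, 0.12 ± 0.13 and 0.09 ± 0.13 (adjusted p = 0.559, 0.521 and 0.6). At 43 days its direction turned after centring, with means of 7.30 in dKO and 7.54 in HET hearts, and within the larger array set alone it passed as lower. The further results for Flt1 are as deposited. Its dimmer probe set gave -0.88 ± 0.40, -0.65 ± 0.39 and 0.34 ± 0.39, also not past the threshold (adjusted p = 0.249, 0.283 and 0.555).

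Tek and Tie1 encode the angiopoietin receptor TIE2 and its partner TIE1, which act in vessel stability. Tek on chow at 43 days was 7.12, 7.40 and 7.84 in dKO hearts and 6.52, 6.96 and 7.37 in HET hearts (lowest, median and highest log2 signal). The groups overlapped, with 7 of 12 dKO hearts above all HET hearts. The difference was 0.51 ± 0.13 (adjusted p = 4.09e-04) as deposited, but 0.18 after quantile normalization and after centring (adjusted p = 0.155 and 0.168). With centring plus the term for array set it passed, but not within the larger array set alone, so its call depended on the setting. At 21 and 31 days Tek gave 0.33 ± 0.13 and -0.02 ± 0.13 (adjusted p = 0.189 and 0.914), and at 21 days it passed after centring (0.42 ± 0.11, adjusted p = 0.0197) but not with the term for array set (0.35, adjusted p = 0.0956). Tie1 gave -0.15 ± 0.18, 0.30 ± 0.17 and 0.15 ± 0.17 at the successive ages (adjusted p = 0.718, 0.207 and 0.477). The further Tie1 probe set gave -0.22 ± 0.12, -0.03 ± 0.11 and 0.01 ± 0.11 (adjusted p = 0.348, 0.918 and 0.977).

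Vwf encodes von Willebrand factor, which endothelial cells store and release and which tethers platelets. On chow at 43 days its log2 signal was 9.00, 9.26 and 9.78 (lowest, median and highest) in dKO hearts and 8.16, 8.42 and 8.60 in HET hearts. Every one of the 12 dKO hearts lay above all 9 HET hearts, as deposited, and 10 of the 12 did after centring. The means were 9.34 ± 0.27 (SD, n = 12) and 8.40 ± 0.12 (SD, n = 9), and the log2 difference of 0.94 ± 0.11 (adjusted p = 1.22e-11) passed in all 4 settings, with 0.61 ± 0.11 after centring. At 31 days Vwf was higher in dKO hearts by 0.44 ± 0.11 (adjusted p = 0.00220) as deposited and by 0.28 (adjusted p = 0.0420) after quantile normalization, but did not pass after centring (0.24 ± 0.12, adjusted p = 0.123). At 21 days the difference was 0.04 ± 0.12 (adjusted p = 0.893). The dim further Vwf probe set, fitted without the filter, gave 0.81 ± 0.33 at 43 days (adjusted p = 0.0463). Platelets and their precursors also make von Willebrand factor: of 9 megakaryocyte and platelet markers 4 were on the array, and the only one tested, Gp5, gave -0.15 ± 0.30 at 43 days (adjusted p = 0.702). Their summed linear signal was 71.3 to 119 in dKO and 62.9 to 243 in HET chow hearts at 43 days, with none of the 4 genes at the floor on all arrays.

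Nos3 encodes endothelial nitric oxide synthase. On chow at 43 days its log2 signal was 6.20, 7.45 and 8.04 (lowest, median and highest) in dKO hearts and 5.77, 6.24 and 6.93 in HET hearts. The ranges overlapped, with 10 of 12 dKO hearts above all HET hearts. The log2 difference was 1.01 ± 0.25 (adjusted p = 5.32e-04) and passed in all 4 settings, with 0.68 ± 0.26 after centring. At 31 days it was 0.76 ± 0.26 (adjusted p = 0.0229) as deposited and 0.55 ± 0.26 (adjusted p = 0.111) after centring, and at 21 days 0.11 ± 0.26 (adjusted p = 0.883).

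Aqp1 encodes a water channel of endothelium in capillaries and other continuous vessels, which red blood cells also carry. On chow at 21 days its log2 signal was 8.21, 8.82 and 9.23 (lowest, median and highest) in dKO hearts and 8.90, 9.69 and 10.14 in HET hearts. At 31 days it was 8.10, 8.49 and 9.20 against 9.35, 9.74 and 9.87, and at 43 days 7.38, 8.28 and 8.80 against 9.54, 9.86 and 10.50. The groups overlapped at 21 days and were fully apart at 31 and 43 days, also after centring. Aqp1 fell by 0.89 ± 0.16 at 21 days, 1.11 ± 0.16 at 31 days and 1.76 ± 0.16 at 43 days (adjusted p = 1.75e-04, 4.87e-08 and 7.02e-17) in dKO relative to HET hearts, past the threshold in all 4 settings. At 21 days it did not pass within the larger or the smaller array set alone after centring, where it was -0.83 and -0.79 (adjusted p = 0.103 and 0.131). The dim further Aqp1 probe set gave 0.25 ± 0.38, -0.61 ± 0.37 and -0.67 ± 0.36 at the 3 ages, none past the threshold (adjusted p = 0.758, 0.286 and 0.159), and the mean of both probe sets gave -0.32, -0.86 and -1.22 (adjusted p = 0.436, 7.11e-04 and 1.77e-07).

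Erythroid markers moved the other way from Aqp1. Of 10 listed, 7 were on the array and 6 were tested, of which 3 rose in dKO chow hearts at 43 days, beside 37.1% of all genes. These were Alas2, the erythroid enzyme of heme synthesis, by 3.94 ± 0.19, Hba-a1, an alpha globin, by 1.54 ± 0.10, and Slc4a1, the red cell anion exchanger, by 2.23 ± 0.27 (adjusted p = 1.58e-32, 3.68e-25 and 1.77e-11). The summed linear signal of the 7 markers at 43 days was 11665 to 18630 in dKO and 4403 to 5399 in HET chow hearts, and at 21 days 9206 to 12754 and 5623 to 9452. None of them was at the floor on all arrays, and their part in the Aqp1 difference was not tested.

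Counted over the 10 genes, 1 was higher and 1 lower in dKO chow hearts at 21 days, 3 higher and 1 lower at 31 days and 4 higher and 1 lower at 43 days. Of all genes tested, 0.670% were called higher and 1.41% lower at 21 days, 20.0% higher and 3.88% lower at 31 days, and 37.1% higher and 11.6% lower at 43 days. The count of 4 of 10 higher at 43 days is near that background. With array weights or with the Gapdh 3' to 5' ratio as a covariate 8 of the 10 genes passed in either direction. The share of all genes passing in these settings is not given here, so the 8 cannot be set against a background. The Gapdh ratio, a mark of RNA integrity, had a log2 mean at 43 days on chow of 0.0521 ± 0.406 (SD, n = 12) for dKO hearts, against -0.213 ± 0.166 (SD, n = 9) for HET. With it as a covariate Cdh5 gave 0.43, Kdr 0.41 and Tie1 0.43 (adjusted p = 0.00813, 0.0355 and 0.0151), and the calls of Vwf, Icam2, Nos3, Tek and Aqp1 stayed past the threshold. Called in all 4 settings were 1 higher and 1 lower gene at 21 days (0.652% and 0.423% of all genes), 1 lower at 31 days (3.70%), and 3 higher and 1 lower at 43 days (19.4% and 11.6%). The median difference over the 10 genes was 0.13, 0.28 and 0.36 at 21, 31 and 43 days, beside -0.10, 0.18 and 0.26 over all genes.

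**Figure D2:**
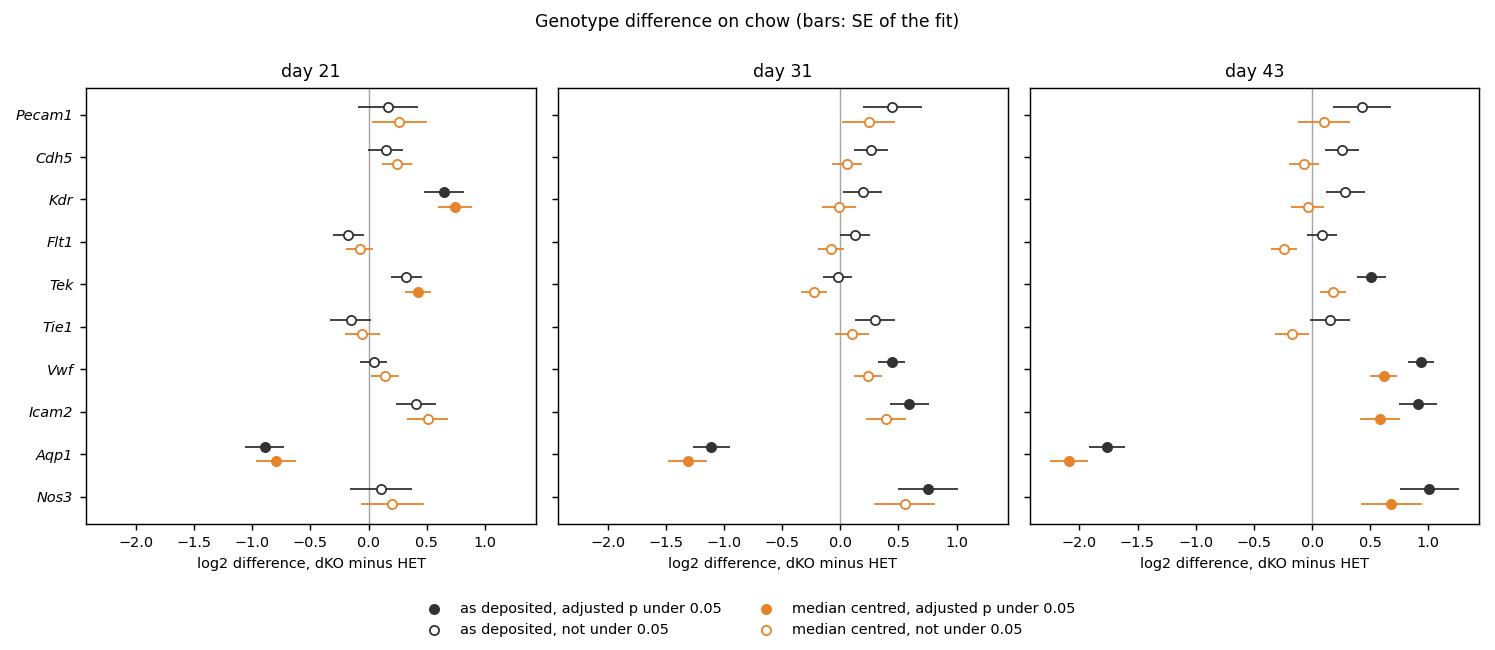
Log2 difference between dKO and HET hearts on chow (x axis) for the 10 genes (y axis) at 21, 31 and 43 days, as deposited and after median centring, with bars for the SE of the fit and filled points for an adjusted p under 0.05. Aqp1 lies left of 0 in every panel, reaching -1.76 as deposited and -2.09 centred at 43 days, where Vwf, Icam2 and Nos3 lie right of 0 in both scalings.

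The genotype difference changed between 21 and 43 days in Vwf, Aqp1 and Nos3. The interaction was 0.90 ± 0.16 for Vwf, -0.87 ± 0.23 for Aqp1 and 0.90 ± 0.37 for Nos3 (adjusted p = 4.77e-06, 0.00143 and 0.0424). Vwf and Aqp1 passed in all 4 settings, and Nos3 did not pass after centring (0.48 ± 0.37, adjusted p = 0.356). These were 2 higher and 1 lower gene beside 32.9% and 6.05% of all genes, and 1 and 1 in all 4 settings beside 9.52% and 6.03%. For Kdr the interaction was -0.78 ± 0.21 after centring (adjusted p = 0.00176) but -0.36 ± 0.24 as deposited (adjusted p = 0.235). Between 21 and 31 days 0 of the 10 genes passed with limma as deposited, beside 14.0% higher and 0.458% lower over all genes. There 1 gene had an unadjusted p under 0.05, a threshold without a share of all genes here: Vwf with 0.40 ± 0.16 (adjusted p = 0.0844). After centring Kdr and Tek passed with -0.75 ± 0.21 and -0.65 ± 0.16 (adjusted p = 0.0107 and 0.00496), though not with the term for array set. As deposited Kdr gave -0.45 ± 0.24 and Tek -0.35 ± 0.18, and the others were Pecam1 with 0.28 ± 0.36, Cdh5 with 0.12 ± 0.21, Flt1 with 0.30 ± 0.18, Tie1 with 0.45 ± 0.25, Icam2 with 0.18 ± 0.24, Aqp1 with -0.22 ± 0.23 and Nos3 with 0.65 ± 0.37.

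Age alone was followed in HET hearts on chow. Kdr was 5.71, 6.57 and 6.95 (lowest, median and highest log2 signal) at 21 days and 6.82, 7.15 and 8.14 at 31 days. Cdh5 was 7.69, 8.34 and 8.68 and then 8.61, 9.07 and 9.37. Tek was 5.98, 6.51 and 7.28 and then 6.99, 7.29 and 7.71. The ages overlapped in each gene, with 8 of 10 hearts at 31 days above all hearts at 21 days for Kdr and for Cdh5 and 5 of 10 for Tek. Kdr rose by 0.89 ± 0.17, Cdh5 by 0.71 ± 0.15 and Tek by 0.69 ± 0.13 (adjusted p = 2.04e-04, 5.82e-04 and 1.23e-04), and these 3 passed in all 4 settings. None of the 3 passed within the larger or the smaller array set alone after centring, where Kdr gave 0.58 and 0.87, Cdh5 0.35 and 0.59, and Tek 0.37 and 0.39. The smaller set held 2 of 9 HET hearts at 21 days and 6 of 10 at 31 days. That makes 3 of 10 higher, beside 15.8% of all genes as deposited, and 2.87% in all 4 settings. Vwf gave -0.13 ± 0.12 as deposited (adjusted p = 0.462) and was lower after centring (-0.35 ± 0.12, adjusted p = 0.0444). At 43 days Cdh5, Kdr and Flt1 were higher than at 21 days by 0.51 ± 0.15, 0.58 ± 0.18 and 0.45 ± 0.14 (adjusted p = 0.0149, 0.0162 and 0.0142) beside 19.3% of all genes, and none of the 3 passed in another of the 4 settings.

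In dKO hearts on chow the age differences depended on the scaling, and the median over all genes was 0.50 higher at 31 days and 0.67 higher at 43 days than at 21 days. From 21 to 31 days 7 of the 10 genes were higher as deposited, beside 62.5% of all genes, and from 21 to 43 days 6 were higher and Aqp1 was lower, beside 73.1% and 4.94%. The log2 beta-actin 3' to 5' ratio moved with age here, with means of -0.165 at 21 days, 0.386 at 31 days and 0.172 at 43 days, and with it as a covariate 6 genes passed from 21 to 31 days. Tek and Vwf no longer did (0.32 and 0.29, adjusted p = 0.0530 and 0.0520), and Nos3 did (0.84, adjusted p = 0.00841). For this covariate the share of all genes passing is not given here. Vwf at 43 days was 9.00, 9.26 and 9.78 and at 21 days 7.94, 8.45 and 8.92 (lowest, median and highest log2 signal as deposited), without overlap. Its rise of 0.91 ± 0.11 (adjusted p = 9.29e-12) became 0.36 (adjusted p = 0.00234) after quantile normalization and 0.19 ± 0.11 (adjusted p = 0.145) after centring. After centring 4 of the 10 genes were lower at 43 than at 21 days, beside 28.0% of all genes: Pecam1 by -0.86 ± 0.22, Kdr by -0.50 ± 0.14, Icam2 by -0.39 ± 0.16 and Aqp1 by -1.29 ± 0.16 (adjusted p = 6.94e-04, 0.00191, 0.0423 and 3.75e-11). As deposited the first 3 gave -0.14 ± 0.24, 0.22 ± 0.16 and 0.33 ± 0.16, and only Aqp1 was lower in all 4 settings, with -0.57 ± 0.15 as deposited (adjusted p = 5.79e-04), beside 4.94% of all genes, though the mean of both Aqp1 probe sets gave -0.37 (adjusted p = 0.0705).

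**Figure D3:**
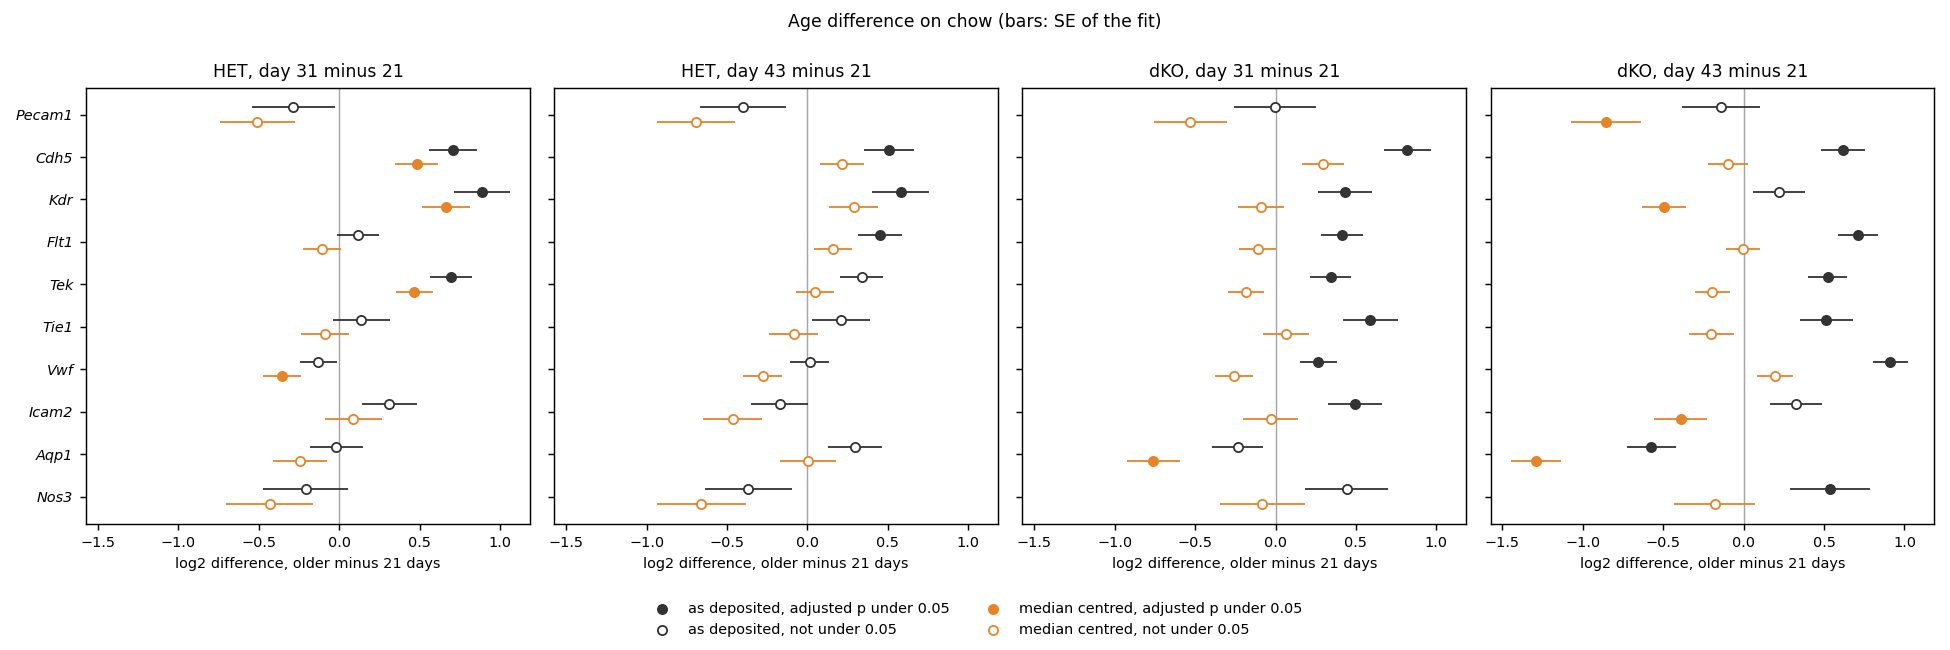
Log2 difference of 31 or 43 days from 21 days on chow (x axis) for the 10 genes (y axis), in HET and dKO hearts, as deposited and after median centring, with bars for the SE of the fit and filled points for an adjusted p under 0.05. In dKO hearts the 2 scalings differ most, as for Vwf at 43 days with 0.91 and 0.19, and Aqp1 is left of 0 in both.

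Probucol was compared with chow in dKO hearts, whose chow groups are shared with the genotype comparison. At 21 days 0 of the 10 genes passed with limma, beside 0% of all genes higher and 0.176% lower, and 4 had an unadjusted p under 0.05: Cdh5, Kdr and Icam2 with -0.34 ± 0.17, -0.42 ± 0.19 and -0.65 ± 0.19, and Aqp1 with 0.45 ± 0.18. No share of all genes at that unadjusted threshold is given here, so the 4 have no background. At 31 days 8 were lower, beside 26.8% of all genes, and Cdh5, Icam2 and Nos3 were lower in all 4 settings, beside 10.7%. At 43 days 5 were lower and Aqp1 was higher, beside 37.4% and 8.21%, and in all 4 settings 4 were lower and 1 higher, beside 16.9% and 8.21%. Neither dKO group at 43 days holds an array of the smaller set, so the term for array set cannot change these differences from those after centring. The beta-actin 3' to 5' probe set ratio, a mark of RNA integrity, had a log2 mean of 0.386 on chow and 0.0354 on probucol at 31 days, and with that ratio as a covariate 6 genes passed at 31 days, without Kdr and Flt1 (adjusted p = 0.0516 and 0.0909), and 6 at 43 days. The share of all genes passing with this covariate is not given here, so these counts have no background. The median difference over the 10 genes at 43 days was -0.34 as deposited and 0.07 after centring, beside -0.31 and 0.10 over all genes.

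Among the adhesion genes, Cdh5 at 31 days was 7.35, 8.44 and 8.61 (lowest, median and highest log2 signal) on probucol and 8.52, 9.38 and 9.81 on chow. As deposited 5 of 8 probucol hearts lay below all chow hearts, and after centring all 8 did. Cdh5 fell by 1.0 ± 0.15 at 31 days and 0.88 ± 0.16 at 43 days (adjusted p = 2.59e-07 and 4.09e-06). Icam2 at 43 days was 6.12, 6.47 and 6.91 on probucol and 6.86, 7.37 and 8.03 on chow. Of the 6 probucol hearts, 5 lay below all chow hearts. Icam2 fell by 0.91 ± 0.18 at 31 days and 0.95 ± 0.19 at 43 days (adjusted p = 3.04e-05 and 1.28e-05). Pecam1 gave 0.20 ± 0.27 and 0.30 ± 0.28 at these ages (adjusted p = 0.616 and 0.413) and passed only after scaling at 43 days, with 0.71 ± 0.25 after centring (adjusted p = 0.0195).

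Among the growth factor and angiopoietin receptors, at 31 days Kdr, Flt1, Tek and Tie1 were lower on probucol by -0.48 ± 0.18, -0.34 ± 0.14, -0.41 ± 0.13 and -0.60 ± 0.18 as deposited (adjusted p = 0.0354, 0.0498, 0.0141 and 0.00821), and none of the 4 passed after centring, where they ranged from -0.30 to -0.04. At 43 days Tek alone passed, with -0.39 ± 0.14 as deposited (adjusted p = 0.0205), and its sign turned to 0.02 ± 0.12 after centring. The further Tie1 probe set gave -0.48 ± 0.12 at 31 days (adjusted p = 0.00217) and -0.28 ± 0.13 at 43 days (adjusted p = 0.0982).

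Vwf at 43 days was 8.02, 8.42 and 8.54 (lowest, median and highest log2 signal) on probucol and 9.00, 9.26 and 9.78 on chow. All 6 probucol hearts lay below all 12 chow hearts, also after centring. Vwf fell by 0.98 ± 0.13 (adjusted p = 3.47e-10), or 0.57 ± 0.13 after centring, and its dim further probe set gave -1.35 ± 0.37 (adjusted p = 0.00252). At 31 days Vwf was -0.38 ± 0.12 as deposited (adjusted p = 0.0116) and -0.08 ± 0.12 after centring (adjusted p = 0.705).

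Nos3 on probucol was spread widely: at 31 days its log2 signal was 4.40, 5.75 and 7.36 (lowest, median and highest) against 6.62, 7.31 and 7.86 on chow, and at 43 days 4.51, 6.40 and 6.73 against 6.20, 7.45 and 8.04. The ranges overlapped at both ages, with 6 of 8 probucol hearts below all chow hearts at 31 days and 1 of 6 at 43 days. That 1 heart, at 4.51, stood apart from the next at 6.21, and no setting left it out. Nos3 fell by 1.59 ± 0.27 and 1.24 ± 0.29 (adjusted p = 2.65e-06 and 2.05e-04), past the threshold in all 4 settings.

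Aqp1 at 43 days was 8.69, 9.17 and 9.77 on probucol and 7.38, 8.28 and 8.80 on chow (lowest, median and highest log2 signal). As deposited 5 of 6 probucol hearts lay above all chow hearts, and after centring all 6 did. Aqp1 rose by 0.97 ± 0.18 (adjusted p = 3.25e-06) at 43 days in all 4 settings, and at 31 days it gave 0.26 ± 0.17 (adjusted p = 0.252) as deposited and 0.56 ± 0.17 (adjusted p = 0.0120) after centring. Its dim further probe set gave 0.14 ± 0.41 at 43 days (adjusted p = 0.870). The erythroid sum was 3763 to 5712 on probucol at 43 days, below the 11665 to 18630 on chow, and its part was not tested.

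**Figure D4:**
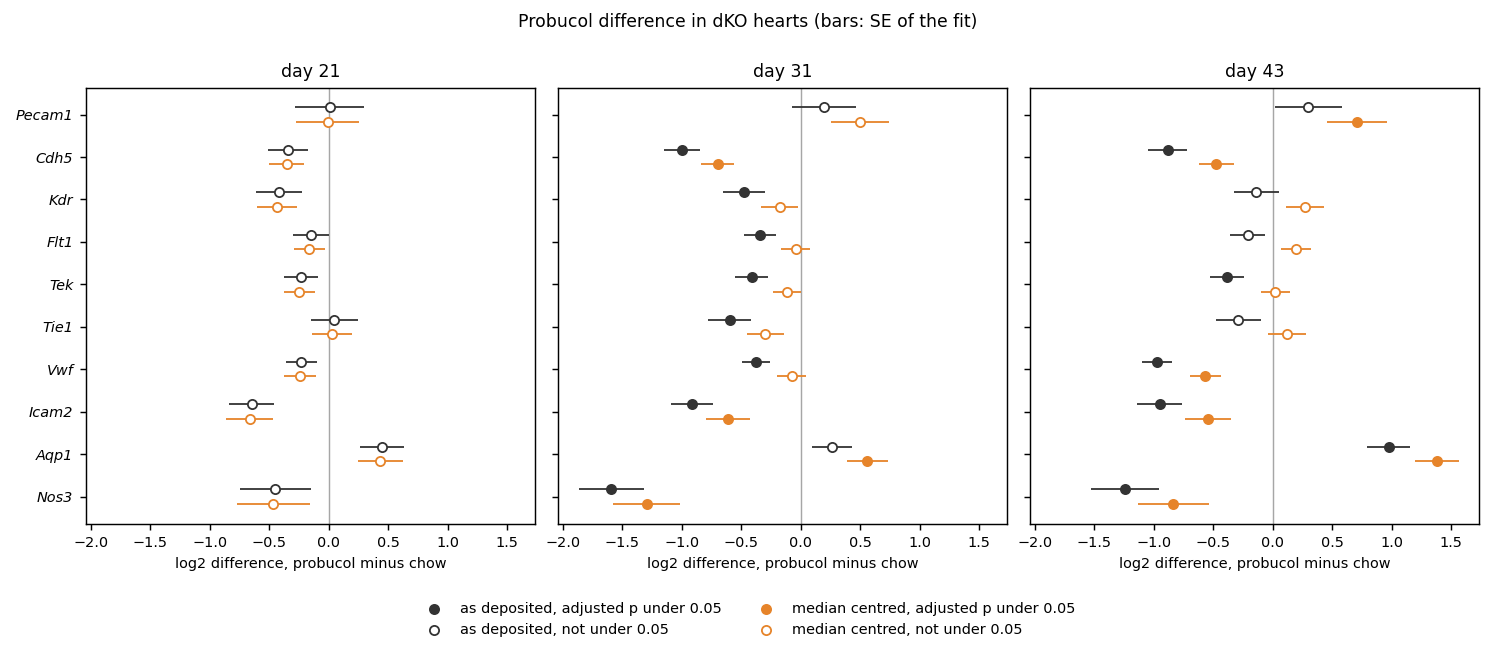
Log2 difference between dKO hearts on probucol and on chow (x axis) for the 10 genes (y axis) at 21, 31 and 43 days, as deposited and after median centring, with bars for the SE of the fit and filled points for an adjusted p under 0.05. At 43 days Cdh5, Vwf, Icam2 and Nos3 lie left of 0 in both scalings and Aqp1 lies right of 0, at 0.97 as deposited.

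In HET hearts, averaged over the 3 ages, probucol lowered 1 of the 10 genes, beside 2.34% of all genes and 1.18% in all 4 settings. This was Aqp1, by -0.75 ± 0.14 (adjusted p = 8.53e-04). Its log2 signals on probucol were 8.27, 8.63 and 9.53 at 21 days, 8.53, 8.68 and 9.65 at 31 days, and 9.16 and 9.43 at 43 days, and 6 of the 8 hearts lay below the lowest HET chow heart of their age. The mean of both Aqp1 probe sets gave -0.46 (adjusted p = 0.184). Cdh5 gave -0.42 ± 0.13 (adjusted p = 0.0621) and Pecam1 0.55 ± 0.23 (adjusted p = 0.212). Nos3 gave -0.39 ± 0.23, Vwf -0.12 ± 0.10, Flt1 -0.11 ± 0.12, Tie1 -0.03 ± 0.16, Icam2 -0.02 ± 0.15, Tek -0.01 ± 0.12 and Kdr 0.01 ± 0.15, none past the threshold.

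The effect of probucol differed between dKO and HET hearts in 3 genes, averaged over the ages. Aqp1 gave 1.31 ± 0.18 (adjusted p = 1.17e-08), the sum of a rise in dKO and a fall in HET hearts. Icam2 gave -0.82 ± 0.19 (adjusted p = 4.73e-04) and Vwf -0.41 ± 0.13 (adjusted p = 0.0142). Aqp1 and Icam2 passed in all 4 settings, and Vwf gave -0.24 ± 0.13 after centring (adjusted p = 0.184). Beside these 1 higher and 2 lower genes stood 5.38% and 13.5% of all genes, and beside the 1 and 1 in all 4 settings 5.36% and 8.87%. On probucol, dKO and HET hearts differed in 0 of the 10 genes with limma, beside 0.0353% higher and 0.0529% lower over all genes, and 0 had an unadjusted p under 0.05. The 10 differences ran from -0.18 ± 0.16 for Icam2 to 0.07 ± 0.11 for Vwf, with only 8 HET probucol hearts. Between these lay Tie1 (-0.15 ± 0.16), Flt1 (-0.11 ± 0.12), Cdh5 (-0.10 ± 0.14), Nos3 (-0.08 ± 0.24), Tek (-0.07 ± 0.12), Pecam1 (-0.04 ± 0.24), Kdr (0.02 ± 0.16) and Aqp1 (0.05 ± 0.15).

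Among the 12 groups as deposited, dKO chow hearts at 43 days had the highest mean of Flt1, Tek, Vwf and Nos3 and the lowest of Aqp1, and dKO chow hearts at 31 days had the highest mean of Cdh5, Kdr, Tie1 and Icam2. Pecam1 was highest in HET probucol hearts at 43 days (7.06 ± 0.23, SD, n = 2) and lowest in HET chow hearts of that age (6.15 ± 0.70, SD, n = 9). The lowest mean of Cdh5, Kdr, Tie1, Vwf and Icam2 was in HET probucol hearts at 21 days (n = 3). Neighbours in the order of the 12 means differed by no more than the larger of their SDs, with 4 exceptions. Vwf of dKO chow hearts at 43 days (9.34 ± 0.27) stood above the next group (8.70 ± 0.25), and Aqp1 of HET chow hearts at 31 days (9.66 ± 0.17) above HET probucol hearts at 43 days (9.30 ± 0.19). Nos3 of dKO chow hearts at 31 days (7.27 ± 0.37) stood above those at 21 days (6.83 ± 0.33), and Cdh5 of dKO probucol hearts at 21 days (8.13 ± 0.17) above HET probucol hearts of that age (7.89 ± 0.15).

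After median centring the genes had no shared profile over the 12 group means. The correlation of each gene with the mean of the other 9 ranged from -0.26 for Flt1 to 0.60 for Icam2, as a description over 12 groups. Within groups, over 88 arrays, the closest pairs were Icam2 with Nos3 and Cdh5 with Flt1 (both r = 0.45), Kdr with Tek (0.41) and Tie1 with Nos3 (0.41), and the farthest was Pecam1 with Flt1 (-0.28), with values of 1 array sharing its RNA and scaling. The genes whose centred group means were most like the standardized mean of the 10 were Smagp (r = 0.85), Mgll (0.81), Arap3 (0.79), Septin4 (0.79) and Gnb4 (0.79). The gene most like Aqp1 was Cdkn1c (0.96), that most like Cdh5 was Notch3 (0.95), that most like Vwf was Snx4 (0.93), and that most like Pecam1 was Ubac1 (0.92). Nos3 was nearest to Snx12 (0.91), Icam2 to Lama4 (0.89), Flt1 to Polr2h (0.82), Tie1 to Ptprm (0.81), Kdr to Ddx18 (0.79) and Tek to Prkar1a (0.79).

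Other endothelial markers were read from a list of 30, of which 21 were on the array and 15 were tested. On chow at 43 days 9 of the 15 were higher in dKO hearts and 1 lower, beside 37.1% and 11.6% of all genes, and in all 4 settings 7 and 1, beside 19.4% and 11.6%. Cd93, an endothelial surface glycoprotein, was higher by 1.34 ± 0.14, Mcam, an adhesion molecule, by 1.40 ± 0.15, Eng, a co-receptor for transforming growth factor beta, by 0.70 ± 0.09 and Cldn5, a tight junction protein, by 1.97 ± 0.29 (adjusted p = 6.01e-14, 4.19e-13, 2.04e-10 and 1.46e-08). The gene that was lower was Cd36, a fatty acid carrier also of heart muscle, by -0.90 ± 0.14 (adjusted p = 3.10e-08), named after its value was seen, and on probucol it was higher by 1.02 ± 0.16 (adjusted p = 3.63e-08). The median of the 15 was 0.51, beside 0.26 over all genes and 0.36 over the 10 genes described here. On probucol in dKO hearts at 43 days, 10 of the 15 were lower and 1 higher, beside 37.4% and 8.21% of all genes, and in all 4 settings 6 and 1, beside 16.9% and 8.21%. The values were for Cd93 -1.65 ± 0.16, for Mcam -1.76 ± 0.17 and for Cldn5 -2.47 ± 0.33 (adjusted p = 2.75e-15, 8.49e-15 and 9.05e-10). In HET hearts from 21 to 31 days Cd93 rose by 0.70 ± 0.14 and Mcam by 0.65 ± 0.16, while Ramp2, a subunit of the adrenomedullin receptor, fell by 0.55 ± 0.12 (adjusted p = 4.64e-04, 0.00234 and 6.94e-04).

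The pathway around these receptors was mixed. Of 20 genes of vascular endothelial growth factor and angiopoietin signalling, 15 were tested, and on chow at 43 days 6 were higher and 2 lower in dKO hearts. The ligand Vegfb fell by 0.69 ± 0.09, and the ligand Vegfd rose by 1.60 ± 0.38, the adaptor Shc1 by 0.85 ± 0.17 and the lymphatic receptor Flt4 by 0.63 ± 0.15 (adjusted p = 1.41e-09, 2.68e-04, 2.11e-05 and 1.82e-04). Of 22 endothelial transcription factors, 16 were tested, with 7 higher and 1 lower, among them Lyl1 (1.23 ± 0.13), Lmo2 (0.73 ± 0.13), Ets2 (0.63 ± 0.11) and Foxc2 (1.71 ± 0.33), all past the threshold (adjusted p = 5.80e-13, 2.51e-06, 7.93e-07 and 7.66e-06). Of 16 Notch and arterial or venous genes, 9 were tested and 6 were higher, led by the Notch target Hey1 (1.14 ± 0.27) and the connexin Gja4 (1.43 ± 0.36), with adjusted p = 2.18e-04 and 5.07e-04. Of 15 genes of nitric oxide and caveolae, 7 were tested and 3 were higher, among them Ddah2, which degrades an inhibitor of nitric oxide synthase (0.67 ± 0.10, adjusted p = 4.80e-08). In all 4 settings the higher genes of the 4 lists numbered 4, 5, 2 and 2, so that 6 of 9 Notch and vessel genes became 2 of 9. Over all genes 37.1% were higher as deposited and 19.4% in all 4 settings, and 11.6% were lower in either case. Medians over these lists were 0.32, 0.42, 0.71 and 0.45, and -0.01, 0.10, 0.39 and 0.12 after centring. Of 6 lymphatic markers, 4 were tested, with 2 higher, among them Flt4 again, and 1 lower: Pdpn was higher by 1.92 ± 0.24 and Lyve1 lower by -0.51 ± 0.19 (adjusted p = 1.25e-10 and 0.0249).

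On probucol in dKO hearts at 43 days, 9 of 15 signalling genes were lower and 1 higher as deposited. Lower were also 9 of 16 transcription factors, 5 of 9 Notch and vessel genes and 3 of 7 nitric oxide and caveolae genes. As deposited none of these 3 lists had a gene that was higher. Over all genes 37.4% were lower and 8.21% higher as deposited. Gja4 was lower by -2.68 ± 0.41, Lyl1 by -1.36 ± 0.15 and Flt4 by -0.77 ± 0.17 (adjusted p = 3.43e-08, 2.30e-12 and 7.17e-05). Medians over the 4 lists were -0.58, -0.56, -0.71 and -0.53, and -0.17, -0.16, -0.30 and -0.12 after centring. In all 4 settings the lower genes numbered 3, 5, 3 and 1, beside 16.9% of all genes.

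Markers of other cells also differed between these groups. Over all genes at 43 days on chow 37.1% were higher and 11.6% lower as deposited, and 19.4% and 11.6% in all 4 settings. On chow at 43 days all 9 macrophage markers tested, of 12 listed, were higher in dKO hearts, led by Ctss (4.40 ± 0.19) and Mpeg1 (3.85 ± 0.17), and their summed linear signal was 9997 to 19549 in dKO and 1494 to 3758 in HET hearts. Of 10 fibroblast markers 9 were higher as deposited and 6 in all 4 settings, led by Postn (3.32 ± 0.18), with sums of 15552 to 23494 and 6907 to 9809. Of 11 cardiomyocyte markers tested 8 were lower, led by Ckm (-1.71 ± 0.10), with sums of 40057 to 49655 and 51705 to 60995. These sums are as deposited. After centring the cardiomyocyte sums overlapped, at 23594 to 44477 in dKO and 38542 to 66514 in HET hearts, while the macrophage and fibroblast sums stayed apart. Of 9 smooth muscle and pericyte markers 3 were higher and 1 lower as deposited, near the shares of all genes. Their sums were 1693 to 2944 in dKO and 1576 to 2336 in HET hearts. After centring 0 were higher and 2 lower (limma), beside 21.2% and 27.6% of all genes, and the median turned from 0.24 to -0.09. No marker of these lists was at the floor on all arrays, and the other endothelial markers summed to 5328 to 9645 in dKO and 3760 to 5480 in HET hearts. On probucol at 43 days dKO hearts had macrophage sums of 2270 to 2684 and fibroblast sums of 6333 to 8368. Their part in the differences of the 10 endothelial genes was not tested.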

How the data were processed

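RNA of 88 mouse hearts was measured on Affymetrix arrays, 1 mouse per array. The deposited values are signal intensity per probe set on a linear scale, made with MAS5 per the submitters' processing notes, and no source used here gives the scaling between arrays. Groups followed the titles, also for dKO chow 21d replicate 2, whose description gives another age. Values were raised to the 10th percentile and log2 transformed, the upper 60% of probe sets by mean entered the fit, and a gene was read from its brightest probe set on average, named through the platform annotation (11251 of 12488 probe sets listed, 10855 with 1 symbol, 396 with several). The 12 group means were fitted with limma 3.58.1 in R 4.3.3 (intensity trend), with Benjamini-Hochberg adjustment over 5673 genes in each of 15 comparisons and a threshold of 0.05. No covariate was used.

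The 10 genes and the 12 other lists were chosen with earlier results of these data known. By the rule for named genes all 10 genes could be named in every comparison, and from each other list at most 4 genes past the threshold, by smallest p (2 if no gene passed). Likeness is Pearson r over 12 group means of median-centred values. Settings tried were quantile normalization, median centring, the array set (80 genes, 40 from each end of the second residual component) as a block or its larger part alone, other floors and filters, no trend, array weights, mean of probe sets, only the groups compared, the Gapdh 3' to 5' ratio, a replicate block, and leaving out arrays. The smaller array set alone and the beta-actin ratio were added after the data were seen. Replicate numbers did not pair the samples: the correlation of deviations was over 0.1 in 3 of 9, 1 of 10 and 1 of 9 pairs at 21, 31 and 43 days. The model was tested on simulated data. The number of arrays limits the precision. Correlations between arrays ran from 0.818 to 0.970. Protein sequences were not used here.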

Additional observations from a re-analysis of the deposited data

Results flagged for a closer look

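In the groups of 4 to 10 hearts, 80 sets of values were tested for a single heart far from the others, and 5 stood apart, where chance gives about 1 in 20. Cdh5 was 7.693 (log2 signal) in HET chow 21d replicate 4 and 7.346 in dKO probucol 31d replicate 3, in both cases below the rest of its group. Kdr was 6.458 in dKO chow 31d replicate 1, Aqp1 was 8.901 in HET chow 21d replicate 6, and Nos3 was 4.512 in dKO probucol 43d replicate 6, each the lowest of its group.

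The effect of genotype on chow differed between 43 and 21 days by limma's interaction test in Vwf (0.8974 on the log2 scale), Aqp1 (-0.87) and Nos3 (0.9038). That of Nos3 did not pass in 6 of 16 other settings, among them quantile normalization and median centring. The effect of probucol differed between dKO and HET hearts in Vwf (-0.4073), Icam2 (-0.8212) and Aqp1 (1.308). That of Vwf did not pass in 4 of 24 other settings, all with rescaled arrays.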

How the results depend on the processing

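Over 25 other settings, no floor, a floor at the 30th percentile and no intensity trend left each of the 150 gene differences on its side of the threshold with its direction. The scaling of the arrays mattered most, because the median over all genes shifted with it. With the replicate block no direction turned, and the number of genes passing went from 3 to 2 (genotype difference, 43 minus 21 days), 7 to 6 (dKO 43 minus 21 days), 8 to 7 and 6 to 5 (probucol in dKO at 31 and 43 days).

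The number of the 10 genes passing for genotype on chow at 21 days (2) became 0 in the larger and 0 in the smaller array set alone, and 1 with the mean of probe sets, with only the groups compared, and without dKO chow 21d replicate 2, when Kdr was lost. At 31 days (4) it became 2 after quantile normalization, 1 with median centring, 1 with the block for array set and 2 in the larger set. With median centring 11.8% of all genes were higher and 14.3% lower there. At 43 days (5) it became 8 with array weights and 8 with the Gapdh ratio, without a share of all genes to set beside it. For the genotype difference between 31 and 21 days (0) it became 2 after quantile normalization, 2 after median centring and 2 with array weights, and between 43 and 21 days (3) it became 5 with the Gapdh ratio. The 2 after median centring were lower, beside 5.78% of all genes. For HET hearts from 21 to 31 days (3) it became 1 in the larger and 0 in the smaller set, and from 21 to 43 days (3) 0 after quantile normalization, median centring, with the block and in the smaller set, and 1 in the larger set and with only the groups compared. Median centring left 1.94% of all genes higher and 3.6% lower from 21 to 43 days. For dKO hearts from 21 to 31 days (7) it became 2 after quantile normalization and 1 after median centring, with the block and in the larger set, and from 21 to 43 days (7) 4, 4, 4 and 2. These counts take both directions together. Shares of all genes are given in this paragraph only for median centring, so counts in its other settings have no background. From 21 to 31 days 7 were higher as deposited, but 0 higher and 1 lower after median centring, beside 11.1% and 16.3% of all genes. From 21 to 43 days 6 higher and 1 lower became 0 higher and 4 lower, beside 19.9% and 28.0% of all genes after centring. For probucol in dKO at 21 days (0) it became 1 with array weights. At 31 days (8) it became 4 with quantile normalization, median centring, the block and the larger set. As deposited these 8 were all lower, and after median centring 3 were lower and 1 higher, beside 10.9% and 12.7% of all genes. For probucol in HET hearts (1) it became 2 in the larger set, among the upper 40%, with only the groups compared and with array weights, and 0 with the mean of probe sets, and leaving out 1 HET probucol heart gave 1 to 2, with Cdh5 added without HET probucol 31d replicate 2 (-0.48, adjusted p = 0.0395). For the probucol effect between genotypes (3) array weights gave 6 and leaving out 1 heart 3 to 4, with Nos3 added without HET probucol 21d replicate 1 or 31d replicate 3.

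Among differences that passed as deposited or in the other setting, directions turned as follows, while differences that passed in neither also changed sign, such as those of Cdh5, Kdr and Flt1 for genotype at 43 days after centring. Flt1 for genotype at 43 days was -0.3033 in the larger set. For dKO hearts from 21 to 31 days, quantile normalization gave Kdr -0.05238, Flt1 -0.07587, Tek -0.1534 and Vwf -0.1603, and median centring Kdr -0.09181, Flt1 -0.1119, Tek -0.1818, Vwf -0.2583 and Icam2 -0.03004. The block gave Kdr -0.05587, Flt1 -0.1112, Tek -0.06032, Tie1 -0.07953 and Vwf -0.197, and the larger set Tie1 -0.01001, Vwf -0.2244 and Icam2 -0.05947. From 21 to 43 days, quantile normalization gave Kdr -0.4614, Tek -0.167, Tie1 -0.1126 and Nos3 -0.15, and median centring Cdh5 -0.09937, Kdr -0.4956, Flt1 -0.004178, Tek -0.1944, Tie1 -0.2027, Icam2 -0.3919 and Nos3 -0.1799. The block gave Cdh5 -0.04132, Kdr -0.4597, Flt1 -0.003529, Tek -0.07301, Tie1 -0.3473 and Nos3 -0.2193, and the larger set Cdh5 -0.1364, Tie1 -0.2777 and Nos3 -0.1646. Tek on probucol at 43 days was 0.03701 after quantile normalization and 0.02275 after median centring, with the block and in the larger set. Apart from the scalings' own construction, the cause was not tested.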
